A study of Mus musculus with 6 samples.

Results

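The blood stem cell niche factors described here are 9 genes through which stromal cells of the bone marrow hold and feed blood-forming stem and progenitor cells: Kitl, Angpt1, Il7, Thpo, Ptn, Vcam1, Lepr, Foxc1 and Ebf3. They were picked out of the tables by gene symbol, from a list drawn up with earlier results of these data known, and all 9 were found among the 25722 genes of the count tables. Their RNA was measured in adherent stromal cells grown from the bone marrow of wild-type C57BL/6 mice (BMSCs), in 3 control libraries that received the solvent DMSO and 3 libraries that received all-trans retinoic acid (RA), the vitamin A derivative that acts through nuclear receptors. Per the sample labels, RA was given at 1 μM for 48 h, and both groups grew in 5% O2 with 20% serum and 10 μM of a ROCK inhibitor. The methods of the study give a lower dose and a shorter time for these samples, so the exposure is uncertain. The labels name no age or sex of the mice, speak of fewer biological replicates than the 3 libraries per group, and do not say that the libraries came from separate mice or cultures. The p-values below therefore measure only the spread between these libraries, which may be technical.

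In the marrow, perivascular stromal cells that carry the leptin receptor are known as the main makers of stem cell factor and of the chemokine Cxcl12, and stem cells lie close to them. Stem cell factor (Kitl) and angiopoietin 1 (Angpt1) act on receptor tyrosine kinases of the blood stem cell, thrombopoietin (Thpo) on stem cells and platelet precursors, and interleukin 7 (Il7) on B cell progenitors, while Vcam1 holds blood cells to the stroma through integrins. The transcription factors Foxc1 and Ebf3 are known to keep these stromal cells in their niche state and from turning into fat or bone cells.

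Lepr and Kitl were the members with the clearest differences between the groups, and the 250 bases before their RefSeq starts (GRCm38.p6, plus strand) are shown first, since RA receptors act by binding DNA. RefSeq places a pair of starts at Lepr, and its windows are chr4:101717157-101717406 and chr4:101717656-101717905. The window of Kitl is chr10:100015571-100015820. Capitals mark a match to TATAAA, the TATA box core, and no letters of the RA receptor motifs searched are marked because none was found in these 3 windows.
Lepr, window 1: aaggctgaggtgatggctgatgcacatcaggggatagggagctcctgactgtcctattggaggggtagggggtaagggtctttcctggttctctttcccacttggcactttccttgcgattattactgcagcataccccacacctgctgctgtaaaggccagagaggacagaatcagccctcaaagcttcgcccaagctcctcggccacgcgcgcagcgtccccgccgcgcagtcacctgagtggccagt
Lepr, window 2: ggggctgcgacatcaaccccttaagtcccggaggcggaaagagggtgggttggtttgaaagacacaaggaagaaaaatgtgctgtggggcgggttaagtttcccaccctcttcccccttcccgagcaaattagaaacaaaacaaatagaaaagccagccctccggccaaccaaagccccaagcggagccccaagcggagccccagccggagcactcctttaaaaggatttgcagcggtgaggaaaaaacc
Kitl: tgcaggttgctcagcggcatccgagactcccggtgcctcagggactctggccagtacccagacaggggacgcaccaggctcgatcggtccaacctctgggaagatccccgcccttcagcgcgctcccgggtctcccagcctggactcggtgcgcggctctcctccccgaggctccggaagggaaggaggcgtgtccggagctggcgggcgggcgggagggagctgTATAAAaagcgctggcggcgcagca

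The letters searched on both strands were the receptor core motif AGGTCA with its variants GGGTCA and then AGTTCA and also GGTTCA, which differ from each other at the same positions and so cannot match in one place. TATAAA was searched separately. At least 1 core motif was present in 38.6% of the 32851 RefSeq windows of the same length, and TATAAA in 12.4%. Pairs of core motifs in the same direction with 1, 2 or 5 bases between them stood in 0.426% of windows and in none of the members' windows. The TATA box core of Kitl lay 25 bases before the RefSeq start. That start, and the second window of Lepr, lie inside the annotated gene spans given below. Windows were at hand for 6 of the 9 members. Among the others, Foxc1 held AGTTCA 6 bases before its start, and the second window of Thpo held TGACCC, which is GGGTCA on the opposite strand, 13 bases before its start. The windows of Ebf3 (80.0% G or C), Foxc1 (70.8%) and Kitl (69.2%) were richer in G and C than the median window (52.4%), and those of Lepr (58.4% and 54.8%) and Ptn (52.0%) were nearer to it. A match is a string of letters and not evidence of binding, and a window without a match says nothing of sites farther away.

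The libraries held between 14737636 and 18511905 counts of reads on genes, so that 3 counts stood for 0.162 to 0.204 CPM by library total alone. Levels are given in CPM, read counts brought to one library size, scaled with the TMM factors of edgeR. The libraries did not group by treatment. The first principal component, with 57.2% of the variance of the 1000 most variable genes, parted control 2, RA 1 and RA 2 (library set 1) from control 1, control 3 and RA 3 (library set 2), and neither labels nor methods give a date or batch for them. For this reason the difference inside each library set is also given for the 7 members tested. Control 2 was the only control in set 1 and RA 3 the only RA library in set 2. Each such difference therefore rests on a single library in one of the groups. RA exposure itself was visible in Cyp26b1, the RA-degrading enzyme, which rose from 5.20 ± 0.670 to 106.8 ± 18.4 CPM (SD, n = 3 each; log2 fold change 4.35, adjusted p = 0.00207, edgeR quasi-likelihood test with Benjamini-Hochberg adjustment over all 13842 tested genes). Without control 1 its log2 fold change was 4.32 and its adjusted p 0.0548 in the same test. Stromal markers were present (12 genes, summed level 2304 to 4394 CPM in controls and 1528 to 3245 CPM after RA), with Thy1 under 1 CPM throughout. Markers of macrophages were also high (14 of 14 genes tested, 22185 to 24765 CPM summed in controls and 21084 to 23558 CPM after RA), so RNA typical of macrophages stood beside the labelled stromal type in every library. Vcam1 is among the genes that marrow macrophages are also known to make. In such bulk RNA, fewer cells of a type and less RNA per cell cannot be told apart.

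Compared per length of transcript (TPM, read counts divided by exon length and scaled to a common total), the members spanned a wide range in control BMSCs. Foxc1 (13.7 ± 4.80 TPM, mean ± SD, n = 3) and Vcam1 (13.6 ± 7.13 TPM) stood highest and did not differ beyond their spread. Kitl followed at 7.01 ± 0.928 TPM, below every control value of Foxc1 and above every value of Ebf3, and its highest value touched the lowest of Vcam1 (both 7.99 TPM). Ebf3 (3.68 ± 1.05 TPM) and Angpt1 (3.47 ± 0.382 TPM) overlapped, and Il7 came below them at 2.20 ± 0.425 TPM. Ptn (0.252 ± 0.0744 TPM), Lepr (0.241 ± 0.00572 TPM) and Thpo (0.152 ± 0.140 TPM) were lowest and overlapped. After RA the order was the same at the top, with Foxc1 at 17.2 ± 2.81 TPM and Vcam1 at 13.1 ± 3.70 TPM. Kitl, at 4.57 ± 0.201 TPM, stood beside Ebf3 (4.32 ± 0.520 TPM) and Angpt1 (4.16 ± 0.822 TPM). Lepr, at 2.50 ± 1.92 TPM, now overlapped both Angpt1 and Il7 (2.19 ± 0.608 TPM). Thpo (0.165 ± 0.0786 TPM) and Ptn (0.0409 ± 0.0355 TPM) remained lowest.

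**Figure D1:**
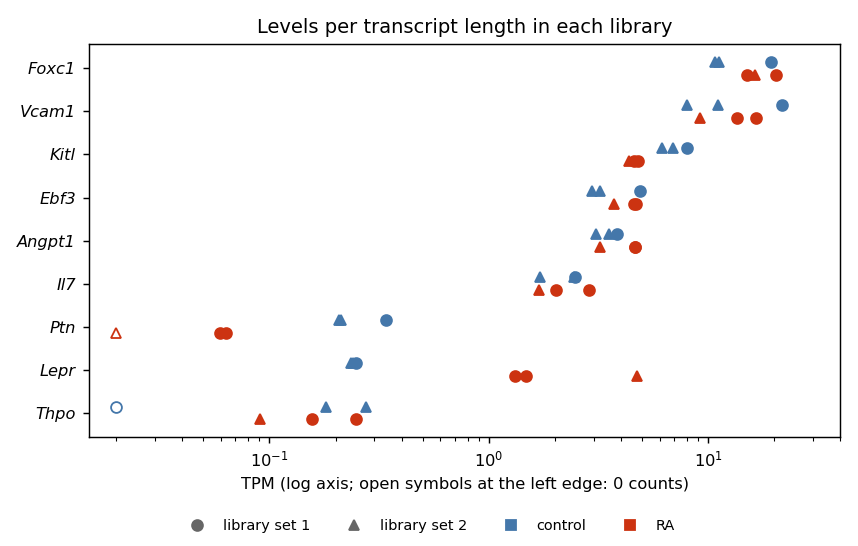
Levels of the 9 niche factor genes in TPM on a log axis, with control and RA libraries as separate points. Foxc1 and Vcam1 stand highest in both groups, and Lepr moves from 0.241 TPM on average in controls to 2.50 TPM after RA.

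Lepr, the receptor that marks the niche-forming stromal cells in vivo, was close to absent from control BMSCs and higher in every RA library. It had 7, 9 and 7 counts in control 1 to 3 and 45, 48 and 139 counts in RA 1 to 3. On the CPM scale these were 0.490, 0.479 and 0.481 against 2.50, 3.04 and 9.48. The controls lay within a narrow range, though at 7 to 9 counts each this closeness says little of their precision. RA 1 and RA 2 stood several-fold above the controls, RA 3 stood far above RA 1 and RA 2, and the groups did not overlap. The mean went from 0.483 ± 0.00609 to 5.01 ± 3.88 CPM, a log2 fold change of 3.35 (SE 0.61), or 10.2-fold. The summed counts gave 232 against 23, a ratio of 9.92 with a 95% interval of 6.45 to 16.0 for counting error alone. PCR copies are not independent molecules, so such intervals cover counting error only.

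The call for Lepr depended on the test. In the edgeR quasi-likelihood test its unadjusted p ranked 53 of 13842 and its adjusted p was 0.292, so it was not called. DESeq2 gave an adjusted p of 0.000142 and the likelihood ratio test of edgeR gave 0.000203. With the library set as a covariate, edgeR gave a log2 fold change of 3.58 (SE 0.38) and an adjusted p of 0.00644. The sets were drawn from these same counts, so adjusted p-values of this fit may be too small, here and below. Over all 14 alternatives that could be fitted the adjusted p ran from 0.000142 to 0.960. The log2 difference was 2.26 in library set 1 and 3.98 in set 2, where RA 3 was the only RA library. Without RA 3 the log2 fold change was 2.50 (adjusted p = 0.126, edgeR), 1.80 times lower in fold than with it, so that RA 3 carried much of the size but not the direction. Lepr passed the expression filter through its RA libraries alone, since each control lay under the cutoff of 0.658 CPM. An exact permutation test of the 6 values, two-sided, gave p = 0.10, the smallest that 3 against 3 libraries allow. Lepr lies at chr4:101717404-101815352 on the plus strand (GRCm38, GENCODE M21).

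Kitl, which encodes stem cell factor, was lower in every RA library than in every control. It stood at 10.5, 13.0 and 11.8 CPM in control 1 to 3 and at 7.34, 8.24 and 7.37 CPM in RA 1 to 3. The RA values lay close together and below the lowest control. The mean was 11.8 ± 1.24 CPM in controls and 7.65 ± 0.514 CPM after RA, a log2 fold change of -0.62 (SE 0.17), or 1.54-fold lower. The difference had an unadjusted rank of 179 of 13842, but did not pass adjustment (adjusted p = 0.600, edgeR quasi-likelihood; 0.159, DESeq2; 0.0724, edgeR with the library set as a covariate; range over all 15 alternatives 0.0724 to 1.00). It was of like size in both library sets (-0.73 and -0.59 on the log2 scale), each with a single library in one group. When any single library was left out it was between -0.70 and -0.53. The exact permutation p was again 0.10. Of the 10 stromal markers tested, 4 had higher and 6 lower means after RA, with a median log2 fold change of -0.14. The marker with the lowest, Ly6a, chosen after its values were seen, stood lower in every RA library. This held for 2 of the 10 markers and 6.87% of all tested genes. Ly6a stood at 36.1 ± 2.99 CPM in controls and 19.3 ± 1.29 CPM after RA (log2 fold change -0.90, SE 0.13). Its adjusted p was 0.172 by edgeR quasi-likelihood, 2.93e-06 by DESeq2, 0.00207 by the likelihood ratio test and 0.0152 by edgeR adjusted for library set. The marker with the highest was Pdgfra (0.83, SE 0.41, adjusted p = 0.795, edgeR). The part of these markers in the Kitl values was not tested. Kitl lies at chr10:100015630-100100416 on the plus strand.

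**Figure D2:**
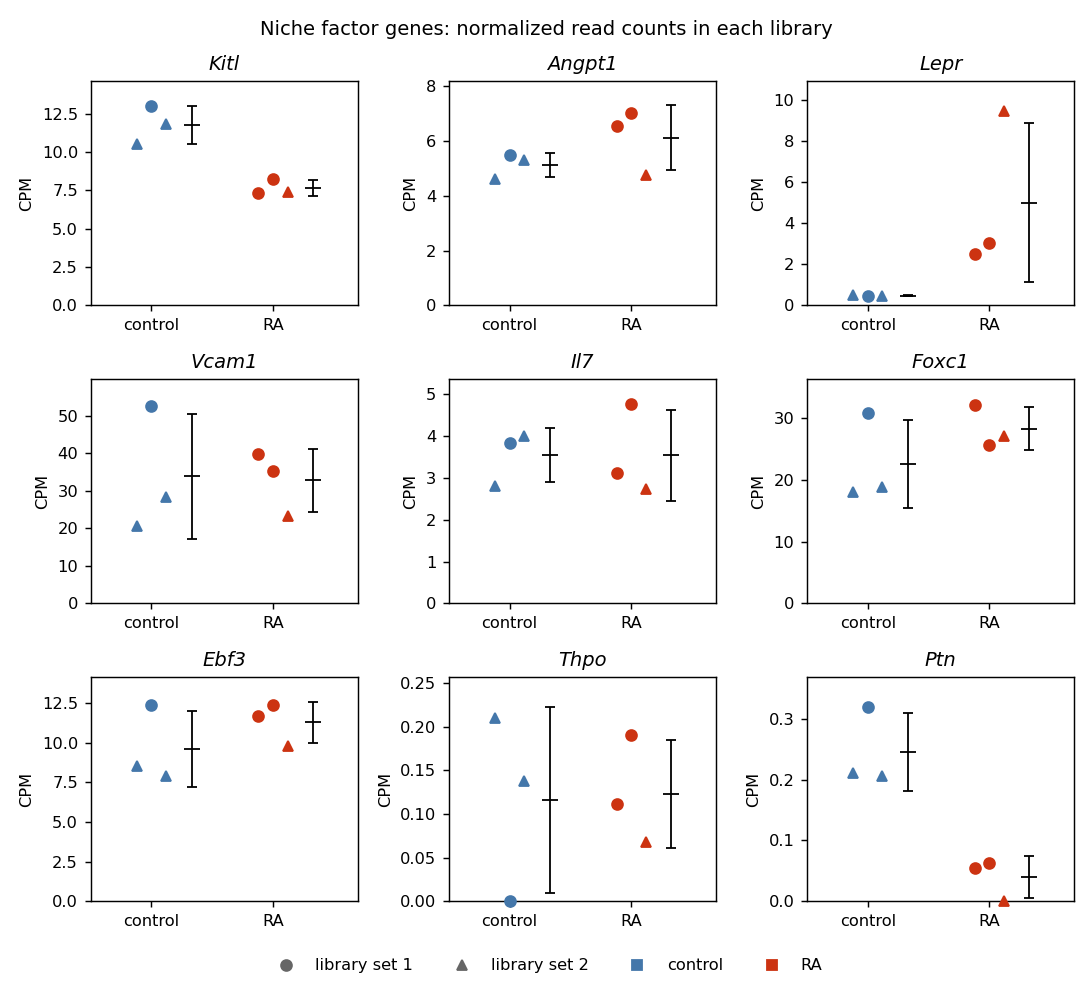
CPM of each niche factor gene by library, with control and RA libraries side by side and library sets marked, and bars for the mean and SD of 3 libraries. In Lepr every RA library (2.50 to 9.48 CPM) lies above the controls, in Kitl every RA library (7.34 to 8.24 CPM) lies below them, and the other tested genes overlap.

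The other secreted members and Vcam1 overlapped between the groups. Angpt1, which steadies vessels and stem cells through the receptor Tek, stood at 4.62, 5.48 and 5.29 CPM in control 1 to 3 and at 6.56, 7.04 and 4.78 CPM in RA 1 to 3. RA 1 and RA 2 were the highest and RA 3 lay among the controls. The log2 fold change was 0.25 (SE 0.22, adjusted p = 0.803, edgeR), with 0.30 in library set 1 and -0.05 in set 2. Il7 stood at 2.80, 3.83 and 3.99 CPM in control 1 to 3 and at 3.11, 4.76 and 2.73 CPM in RA 1 to 3. Its means of 3.54 ± 0.644 and 3.53 ± 1.08 CPM were nearly equal (log2 fold change -0.0042, SE 0.29, adjusted p = 0.997), and its sign turned with the scaling. It was 0.0077 in library set 1 and -0.28 in set 2. Il7 shares 105 exon bases with Gm16685 on the opposite strand, which had 2 to 58 counts where Il7 had 40 to 75. Whether the counting used strand is not given in the sources used here, so reads of the pair could not be parted there. Angpt1 lies at chr15:42424723-42676977 and Il7 at chr3:7569994-7613760, both on the minus strand.

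Vcam1, the adhesion molecule bound by the integrin of Itga4 and Itgb1, had the largest SD among controls of the 9 members (16.7 CPM). It stood at 20.5, 52.7 and 28.5 CPM in control 1 to 3 and at 39.8, 35.3 and 23.3 CPM in RA 1 to 3. Control 2 was the highest and control 1 the lowest of all 6 libraries, so that the RA values lay inside the range of the controls. The gene lies at chr3:116109949-116129688 on the minus strand. The log2 fold change was -0.05 (SE 0.37, adjusted p = 0.978, edgeR), with -0.49 in library set 1 and -0.05 in set 2, and ranged from -0.31 to 0.44 when single libraries were left out, highest without control 2. By library set the values were apart, with 35.3 to 52.7 CPM in set 1 and 20.5 to 28.5 CPM in set 2. Angpt1 (5.48 to 7.04 against 4.62 to 5.29 CPM) and Ebf3 (11.7 to 12.4 against 7.91 to 9.82 CPM) were likewise apart by set. The sets were drawn from these same counts, so some genes must be apart by set. Their share over all tested genes was not counted, and nothing is read from this about the members. Macrophage markers summed to 21084 to 22185 CPM in set 1 and 22550 to 24765 CPM in set 2, and stromal markers to 2092 to 4394 and 1528 to 2501 CPM. Their part in these values was not tested.

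The transcription factors Foxc1 and Ebf3 had means a little higher after RA that did not pass the test. Foxc1 stood at 18.1, 30.9 and 18.9 CPM in control 1 to 3 and at 32.2, 25.6 and 27.2 CPM in RA 1 to 3. Control 2 lay within the RA values, while control 1 and control 3 lay below all of them. The log2 fold change was 0.32 (SE 0.24, adjusted p = 0.802, edgeR), with -0.10 in library set 1 and 0.55 in set 2. Ebf3 stood at 8.54, 12.4 and 7.91 CPM in control 1 to 3 and at 11.7, 12.4 and 9.82 CPM in RA 1 to 3. Control 2 again lay with the RA libraries, and the log2 fold change was 0.23 (SE 0.22, adjusted p = 0.817, edgeR). It was -0.04 in library set 1 and 0.25 in set 2, so that its sign differed between the sets. Ebf3 shares 355 exon bases with the antisense gene Gm45278, which had at most 5 counts. Foxc1, a gene with a single exon, lies at chr13:31806633-31812476 on the plus strand, and Ebf3 at chr7:137193673-137314445 on the minus strand.

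Thpo and Ptn were under the expression filter and were not tested. Thpo, made mainly by the liver in the body, had 3, 0 and 2 counts in control 1 to 3 and 2, 3 and 1 counts in RA 1 to 3, and no difference was detectable at this depth (6 against 5 counts, ratio 1.18, 95% interval 0.300 to 4.89). It shares 239 exon bases with Chrd on the opposite strand, which had 7 to 28 counts. Ptn, pleiotrophin, a heparin-binding growth factor, had 3, 6 and 3 counts in control 1 to 3 and 1, 1 and 0 counts in RA 1 to 3. Its control libraries were all above its RA libraries, as in 6.87% of the tested genes, which leave out Ptn. The 12 control counts against 2 RA counts gave a ratio of 6.10, with a 95% interval of 1.36 to 56.1 for counting error alone. In the edgeR fit without a filter, Ptn had a log2 fold change of -2.39 (SE 0.97) with an adjusted p of 0.745. Thpo lies at chr16:20724454-20734511 and Ptn at chr6:36714929-36810220, both on the minus strand.

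Over the whole set, 7 of 9 members were tested and 0 were called at the thresholds used (adjusted p below 0.05 and a fold of 1.5 or more), where 0.0433% of all tested genes were called (edgeR quasi-likelihood test). DESeq2, the likelihood ratio test and the fit that adjusts for library set each called 1 member, Lepr, where 0.983%, 0.968% and 1.54% of all tested genes were called. Since Lepr passed the filter through its RA libraries alone, nothing is read from these shares about the members. Without a filter edgeR called 0.0778% of all genes and 0 members. An unadjusted p under 0.05 was reached by 2 members and by 5.25% of all tested genes, and by the same 2 and 3.55% when 1.5-fold was also asked. Lepr was the higher of these, where 2.89% of all genes were higher, and Kitl the lower, where 2.36% were lower. Of the 7 tested members, 1 had every RA library above every control (5.71% of all tested genes) and 1 had every RA library below (6.87%). As the higher member was again Lepr, nothing is read from these counts about the members either. The median log2 fold change of the 7 was 0.23, against -0.018 over all tested genes, with 4 higher and 3 lower. With a minimum of 10 counts in every library, where Lepr drops out, the median was 0.12.

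**Figure D3:**
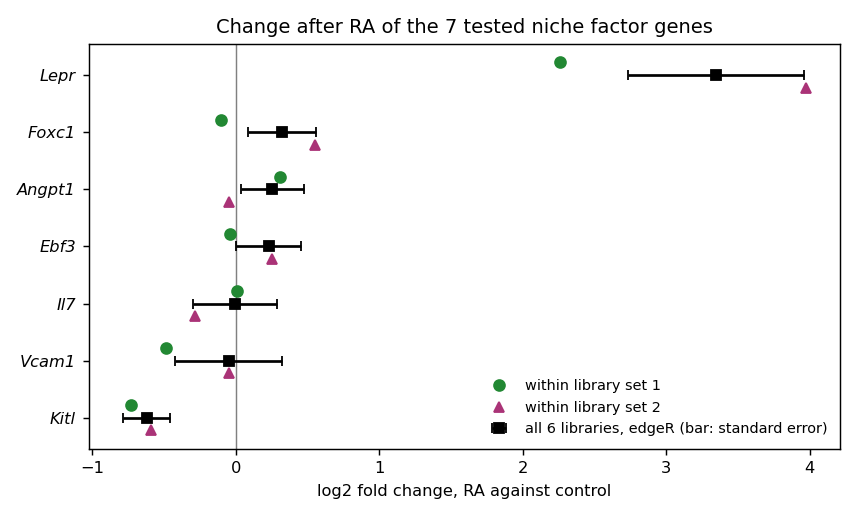
Log2 fold change, RA against control, of each tested niche factor gene with its standard error and its values within library set 1 and set 2. Lepr (3.35) lies far to the right in both sets, Kitl (-0.62) lies to the left in both, and the other 5 have pooled values between -0.05 and 0.32, with single sets as far out as 0.55 (Foxc1, set 2) and -0.49 (Vcam1, set 1).

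**Figure D4:**
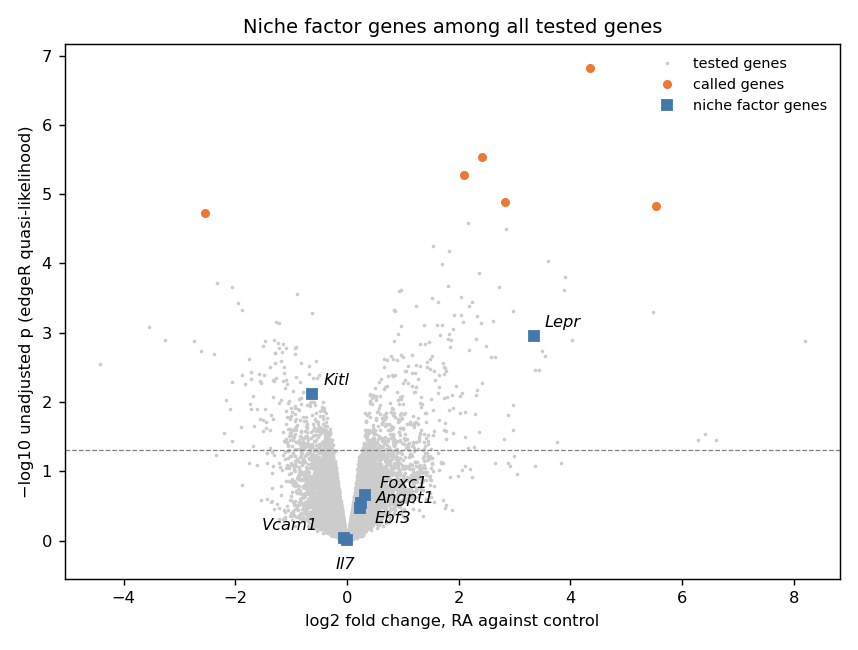
Log2 fold change against the -log10 unadjusted p of the edgeR quasi-likelihood test for all 13842 tested genes, with the 6 called genes in orange and the 7 tested niche factor genes as blue squares. Lepr and Kitl lie above the dashed line at an unadjusted p of 0.05, and the other members lie below it.

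In the edgeR fit, log2 fold changes of the partners of these factors were all smaller in size than that of Lepr. Since Lepr ranked 21 of 13842 by size, nothing is read from this about the partners. Of 13 receptors for the niche ligands, 8 were tested, 0 were called and 0 had an unadjusted p under 0.05 (0 called by DESeq2), where 0.0433%, 5.25% and 0.983% of all tested genes did. Kit, Tek, Tie1 and Alk, receptors tied to stem cell factor, the angiopoietins and pleiotrophin, were under 1 CPM in every library. The log2 fold changes ran from -0.45 in Il7r (7.35 ± 4.08 to 5.37 ± 3.90 CPM; -1.22 without RA 3), the receptor of interleukin 7, to 0.22 in Itgb1 (813 ± 185 to 949 ± 188 CPM), an integrin chain that binds Vcam1. All 10 genes of leptin receptor signalling were tested and 0 were called (0 by DESeq2), with 2 at an unadjusted p under 0.05, both lower (2.36% of all tested genes). These were Sh2b1 (-0.33, SE 0.13, adjusted p = 0.795, edgeR), an adaptor of Jak2, and Stat5a (-0.32, SE 0.13, adjusted p = 0.795), chosen after its values were seen. Jak2, the kinase bound to the receptor, stood at 81.9 ± 19.1 and 71.9 ± 12.8 CPM, and Ptpn2, a phosphatase of the pathway, had the highest log2 fold change (0.35). Leprot, which encodes a small protein known to affect how much leptin receptor reaches the cell surface, stood at 114 ± 10.1 CPM in controls and 103 ± 14.3 CPM after RA.

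Among the 4 sheddases, which cut membrane-bound ligands and adhesion molecules from the cell surface, 0 were called (0 by DESeq2) and 2 had an unadjusted p under 0.05, both higher (2.89% of all tested genes). Mmp9, which releases soluble stem cell factor, had the highest log2 fold change (1.40, SE 0.56, adjusted p = 0.795, edgeR), from 86.5 ± 52.1 to 228 ± 120 CPM. Without control 2 it was 2.03. Adjusted for library set, its log2 fold change was 0.88 and its adjusted p 0.0167. Mmp14 had the lowest (-0.44, SE 0.20, adjusted p = 0.795), and adjusted for library set it was -0.56 (adjusted p = 0.0484), short of 1.5-fold.

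Of 32 other secreted niche factors, 23 were tested and 0 were called by the edgeR quasi-likelihood test, with 4 higher and 1 lower at an unadjusted p under 0.05 (2.89% and 2.36% of all tested genes). The median log2 fold change was -0.25. Cxcl12, the chemokine that retains blood stem cells in the marrow, stood at 368, 443 and 413 CPM in control 1 to 3 and at 578, 513 and 462 CPM in RA 1 to 3. Every RA library was above every control, but the difference did not pass adjustment (log2 fold change 0.34, SE 0.14, adjusted p = 0.795, edgeR). With Cxcl12 counted, 4 of the 23 tested were above in this way (5.71% of all tested genes) and 1 below (6.87%). Csf1, the growth factor of macrophages, overlapped between groups (184 ± 110 and 108 ± 47.8 CPM, log2 fold change -0.77), while after adjustment for library set its log2 fold change was -1.18 (adjusted p = 0.00274, edgeR). Without control 2 and with no such adjustment it was -0.15. Mdk, midkine, the relative of Ptn, was near 1 CPM in both groups (0.846 ± 0.461 and 0.936 ± 0.346 CPM). The extremes were Il6 (-1.31, SE 1.30) and Tnfsf11 (2.28, SE 0.93), the osteoclast factor RANKL, which stood at only 0.358 ± 0.405 and 1.85 ± 1.28 CPM. Without control 2 the log2 fold changes of Il6 and Tnfsf11 were 1.43 and 3.69. Angpt2, the rival of Angpt1 for the receptor Tek, chosen after its values were seen, had a log2 fold change of 1.53 (SE 0.23, adjusted p = 0.183, edgeR quasi-likelihood), from 2.88 ± 0.647 to 8.34 ± 0.322 CPM. It was called by DESeq2 (adjusted p = 3.65e-06). Adjusted for library set, where 1.54% of all tested genes were called, 4 genes of this list were: Csf1, Il6 (-2.19, adjusted p = 0.00636), Angptl2 (-0.93, adjusted p = 0.00329) and Angpt2 (adjusted p = 0.0167).

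Of 17 other stromal transcription factors, 15 were tested and 0 were called by the edgeR quasi-likelihood test, where 0.0433% of all tested genes were, with 2 higher and 1 lower at an unadjusted p under 0.05 (2.89% and 2.36% of all). DESeq2 called 2 of them, Nr2f1 and Osr1 (0.983% of all). Nr2f1, an orphan nuclear receptor, had the highest log2 fold change (1.76, SE 0.39, adjusted p = 0.391, edgeR), from 1.11 ± 0.488 to 3.83 ± 0.946 CPM, and Snai2 had the lowest (-0.92, SE 0.29, adjusted p = 0.795). Adjusted for library set, edgeR called 2 of the list (1.54% of all tested genes), Snai2 (-1.13, adjusted p = 0.0195) and Osr1 (adjusted p = 0.0274). Every RA library was below every control in Snai2 and above every control in Osr1. Of the 15 tested, 2 were below in this way (6.87% of all tested genes) and 2 above (5.71%). The relatives of the member factors, Foxc2 (-0.43, SE 0.29) and Ebf1 (-0.36, SE 0.34), overlapped between the groups.

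**Figure D5:**
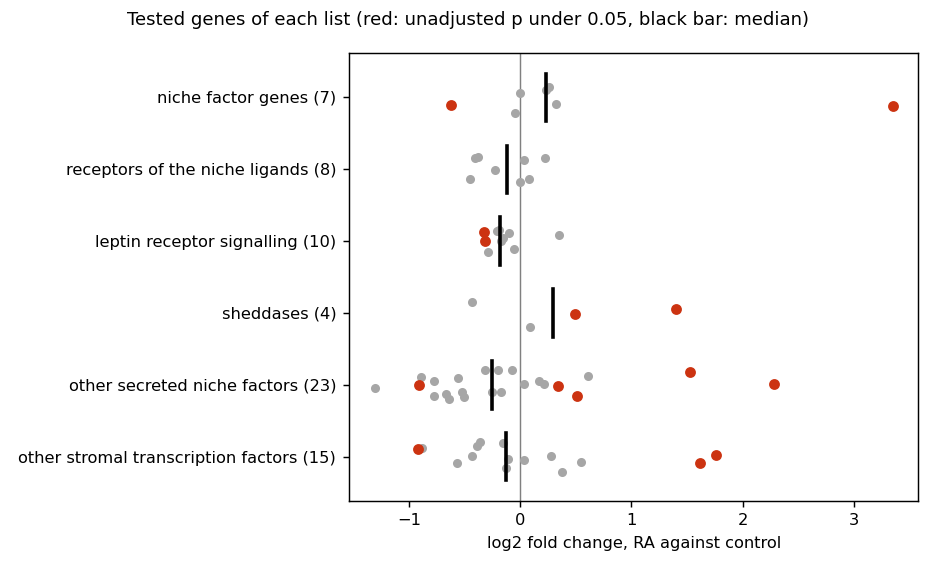
Log2 fold change, RA against control, of the tested genes of 6 lists, with red points for an unadjusted p under 0.05 and a black bar for the median of each list. Lepr (3.35) is the point farthest from 0, and the list medians lie between -0.25 and 0.29.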

How the data were processed

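The authors deposited raw read counts per gene, 1 table per library, without normalization. The submitters' processing notes name Bowtie2 2.2.3 and the build mm10. The counting program and its strand setting are not given in the sources used here. In the tables, 24 gene names had become dates and were replaced by Ensembl identifier, and 25706 of 25722 identifiers matched GENCODE M21, which gave coordinates and exon lengths for TPM.

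Counts were scaled by TMM and filtered with filterByExpr in edgeR 4.0.16 (R 4.3.3), and RA was tested against control with the quasi-likelihood F test without covariates. A gene counted as called where its p, adjusted by Benjamini-Hochberg, was below 0.05 and its fold 1.5 or more. Alternatives were DESeq2 1.42.0, the likelihood ratio test, other scalings, filters and thresholds, each library left out, a replicate block, and the library set as a covariate. The library sets came from the same counts, so p-values of that last fit may be too small. Ratios of summed counts carry exact Clopper-Pearson intervals.

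The members, lists and rules were chosen with earlier results of these data known. Genes named besides the members are the called genes and the lowest and highest log2 fold change of each partner list, Cxcl12, Csf1, Mdk and Cyp26b1, and for each member the 2 tested genes of at least 1 CPM on average with the closest profile. Stat5a, Jak2, Leprot, Foxc2, Ebf1, Angpt2, Angptl2, Osr1, Ly6a and Pdgfra, genes of the same lists, were added after their values were seen, as were members of marker and receptor lists named for a level under 1 CPM. Marker lists of endothelial cells, megakaryocytes, neutrophils, B cells, adipocytes and osteoblasts were also read. Some genes of the lists are not reported here. Promoter windows came from RefSeq.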

Additional observations from a re-analysis of the deposited data

How the results depend on the processing

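Against 6 genes called over all genes, DESeq2 called 136, the likelihood ratio test 134, edgeR without a filter 20, edgeR with the library set as a covariate 213, and an unadjusted p under 0.05 with 1.5-fold 491. Leaving out single libraries gave 0 to 6. Of the niche factor genes, 0 were called, against 1 by DESeq2, 1 by the likelihood ratio test, 1 with the library set as a covariate and 2 at an unadjusted p with 1.5-fold, and 0 with any library left out. Their median log2 fold change of 0.23 ranged from 0.11 to 0.44 with single libraries left out, highest without control 2. Adjusting for library set gave a median of 0.099. With any library left out 7 members were tested, and Lepr was not tested where every library had to hold 10 counts. Il7 turned to 0.0051 by DESeq2, 0.041 by library size, 0.020 by upper quartile, 0.0060 by DESeq2 size factors and 0.0061 with a minimum of 10 counts, and Il7r turned to 0.030 with the library set as a covariate. With libraries left out, log2 fold changes ran from -0.31 to 0.44 in Vcam1, -0.28 to 0.15 in Il7, -1.82 to 1.43 in Il6, -0.077 to 0.69 in Mdk, 1.60 to 3.69 in Tnfsf11, -1.05 to -0.15 in Csf1, 1.07 to 2.03 in Mmp9 and -1.22 to -0.0029 in Il7r. The cause of these shifts was not tested. Of 104 values of members under alternatives, 92 kept the sign.

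The replicate numbers did not pair the libraries, since the deviations of same-numbered libraries correlated at -0.51, 0.343 and 0.572 (replicates 1 to 3). With the replicate block 4 genes were called, 0 of them members. Vcam1 then turned to 0.020, Lepr was at 3.12 (adjusted p = 0.258, edgeR) and Kitl had an adjusted p of 0.714. Depth limits Thpo and Ptn, which had at most 6 counts in a library.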

Other observations

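The tested genes whose log2 CPM followed each niche factor gene most closely over the 6 libraries are given as a description. The 6 libraries hold 2 treatments and 2 library sets, which the genes compared share. Lepr was closest to Fbln1, an extracellular matrix protein (Pearson r = 0.995), and to Enpp4 (r = 0.994), and Kitl to Inka2 (r = 0.988) and Cdsn (r = 0.978). Angpt1, which was apart by library set, was closest to 2700049A03Rik (r = 0.998) and Lrrc40 (r = 0.997), and 222 of the 13010 genes compared had r above 0.95 with it. For Lepr there were 22 such genes, for Kitl 17 and for Il7 8. Vcam1 was closest to Ift122 and Srpr (both r = 0.993), Il7 to Eef1akmt1 (r = 0.984) and Gm48998 (r = 0.980), Foxc1 to Slc35d1 (r = 0.994) and Gtf2h5 (r = 0.984), and Ebf3 to Ccdc6 (r = 0.993) and Actr10 (r = 0.991).

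Markers of other marrow cells were low or incomplete. Endothelial markers summed to 6.86 to 16.1 CPM in controls and 9.95 to 17.1 CPM after RA, with Emcn and Flt1 under 1 CPM in every library. Megakaryocyte markers summed to 17.0 to 24.1 and 10.9 to 46.2 CPM, and neutrophil markers to 3.03 to 4.25 and 3.30 to 3.89 CPM. B cell markers summed to 19.4 to 26.2 and 14.6 to 21.2 CPM, with Cd79a and Pax5 under 1 CPM in every library. That list also holds the stromal factor Ebf1 (19.8 ± 5.71 and 15.4 ± 5.64 CPM). Of the adipocyte markers (1240 to 1795 and 1467 to 1678 CPM) Adipoq and Plin1 were under 1 CPM, and of the osteoblast markers (313 to 472 and 461 to 520 CPM) Bglap was. The edgeR quasi-likelihood test called 0 genes of these lists, with 1 osteoblast marker higher and 1 lower at an unadjusted p under 0.05, and DESeq2 called 0. Of all tested genes these shares were 0.0433%, 2.89%, 2.36% and 0.983%.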
